A study of Mus musculus with 10 samples.

Results

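The genes described here make, break down, carry and report retinoic acid. They were chosen by name with earlier results of these data known, so shares of them set beside shares of all genes only describe these genes. They are 10 genes, *Rdh10*, *Dhrs3*, *Aldh1a2*, *Aldh1a3*, *Cyp26a1*, *Cyp26b1*, *Cyp26c1*, *Crabp1*, *Crabp2* and *Rarb*, and all 10 were found among the 38924 genes of the count files by Ensembl identifier. RNAseq was performed on 10 libraries of sorted cells at day 5 of differentiation of Foxa2-hCD4 mESCs, 1 mouse embryonic stem cell line in which the *Foxa2* locus also produces a truncated human CD4 for sorting. The cardiac cultures received Activin A at 8 ng/ml, BMP4 at 1 ng/ml and VEGF at 5 ng/ml from day 2. They gave Foxa2+ cardiac mesoderm (CM, 3 libraries) and Foxa2- CM (3 libraries), which are Kdr+Pdgfra+ cells with and without hCD4, and the cells labelled Flk1+ high (2 libraries), Kdr+ cells that the study describes as haematopoietic mesoderm (Flk1 is another name for Kdr). Endoderm (2 libraries) came from separate cultures with Activin A at 75 ng/ml from day 2 and was sorted for hCD4. Nothing in the sources used here says that replicates were separate differentiations, so p-values measure the spread between these libraries.

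Retinoic acid is made from vitamin A (retinol) by stepwise oxidation. Rdh10 oxidizes retinol to retinal, a step that Dhrs3 drives backwards, and the retinaldehyde dehydrogenases Aldh1a2 and Aldh1a3 turn retinal into retinoic acid. The Cyp26 enzymes degrade it, the cellular binding proteins Crabp1 and Crabp2 carry it, and in the nucleus it binds receptors such as Rarb, which act as partners of the Rxr receptors on DNA. In the embryonic heart, retinoic acid is known for its part in forming the inflow region and atria, and *Cyp26a1* and *Rarb* are classical genes that it induces. None of the protocols adds retinoic acid, and whether the B27 supplement of the medium contained vitamin A is not given in the sources used here.

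The promoters of the 2 classical response genes are shown because both hold the element through which these receptors are known to bind. Promoter windows of 300 bases (250 before and 50 after each annotated start) were available from RefSeq (GRCm38.p6) for 7 of the 10 genes, as 9 windows. Each was searched on both strands for the hexamer AGGTCA, its variant AGTTCA, the related hexamer GGGTCA and its variant GGTTCA, and for a pair of these in the same direction with 1, 2 or 5 bases between. Capitals mark the hexamers of the pair with 5 bases between. The *Cyp26a1* window lies on the plus strand at chr19:37697558-37697857, and its pair reads on the opposite strand at positions -32 to -16 from the start. The *Rarb* window lies on the minus strand at chr14:16575427-16575726, with its pair at positions -53 to -37.
Cyp26a1: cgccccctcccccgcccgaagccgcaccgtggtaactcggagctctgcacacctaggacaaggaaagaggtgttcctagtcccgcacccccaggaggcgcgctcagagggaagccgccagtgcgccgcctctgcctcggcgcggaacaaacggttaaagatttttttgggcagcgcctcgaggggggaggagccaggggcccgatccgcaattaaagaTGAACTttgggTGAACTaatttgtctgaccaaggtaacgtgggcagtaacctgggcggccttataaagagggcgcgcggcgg
Rarb: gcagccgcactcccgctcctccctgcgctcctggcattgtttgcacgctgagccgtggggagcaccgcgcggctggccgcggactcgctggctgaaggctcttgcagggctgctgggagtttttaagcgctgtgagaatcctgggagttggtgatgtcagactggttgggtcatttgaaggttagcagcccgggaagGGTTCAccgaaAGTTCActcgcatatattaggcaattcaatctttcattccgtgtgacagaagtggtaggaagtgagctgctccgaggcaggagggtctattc
The other 7 windows held no pair of any of the 3 spacings. Over all 32851 RefSeq windows of this length, 32 (0.0974%) held a pair with 5 bases between, and 14358 (43.7%) held at least 1 hexamer. These matches describe the letters and do not show binding.

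All 10 are protein-coding genes, placed here by GENCODE M21 on GRCm38. The makers lie at chr1:16105774-16133734 (*Rdh10*, plus strand), chr9:71215789-71296243 (*Aldh1a2*, plus) and chr7:66390890-66427517 (*Aldh1a3*, minus), and *Dhrs3* at chr4:144892827-144928209 (plus). The degrading enzymes lie at chr19:37697798-37701536 (*Cyp26a1*, plus), chr19:37685581-37693398 (*Cyp26c1*, plus) and chr6:84571414-84593908 (*Cyp26b1*, minus). The carriers lie at chr9:54764748-54773110 (*Crabp1*, plus) and chr3:87948666-87953376 (*Crabp2*, plus), and the receptor gene at chr14:16430839-16819156 (*Rarb*, minus).

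Libraries held 10926284 to 17470126 counts on genes, so that 3 counts in a library, the smallest signal taken as detectable there, equal 0.169 to 0.280 CPM (counts scaled to a common normalized library size). *Foxa2* itself, which the hCD4 sort follows, was at 20.03, 16.0 and 3.497 CPM in Foxa2+ CM 1, 2 and 3. Foxa2- CM had 0.873 to 2.54 CPM, against 183 to 186 CPM in Endoderm and 0.690 to 0.788 CPM in Flk1+ high. Foxa2+ CM 3 thus stood apart from its replicates, closer to Foxa2- CM. The summed level of 9 haemato-endothelial markers was 645 and 611 CPM in the libraries of replicate 3 of Foxa2+ CM and Foxa2- CM, against 383 to 503 CPM in the other CM libraries, 46.0 to 95.3 CPM in Endoderm and 1501 to 1713 CPM in Flk1+ high. The 8 definitive endoderm markers summed to 184 to 202 CPM in all CM libraries and to 1380 to 1497 CPM in Endoderm, and none of the 8 was at 0 in any library. Endoderm also had the highest sums of the 5 neural markers (111 to 124 CPM, against at most 40.8 CPM elsewhere) and of the 4 pluripotency markers (266 to 282 CPM, against at most 105 CPM). The same held for 5 primitive streak, node and notochord markers (487 to 522 CPM, against 224 to 394 CPM). Single markers did not all follow these sums. The pluripotency marker *Dppa4* had 7 counts over Endoderm and 440 over Flk1+ high. Of the neural markers, *Sox1* had 23 and 43 counts there, and *Zic1* had 6 over Endoderm and 22 over Foxa2- CM. *Pax6* had 18 over Endoderm and 3 over Flk1+ high. The 6 visceral endoderm markers summed to 9.22 and 41.1 CPM in Endoderm 1 and 2 and to 1.35 to 18.7 CPM elsewhere. In bulk RNA from sorted cells, fewer cells of a type and less RNA per cell cannot be told apart.

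**Figure D1:**
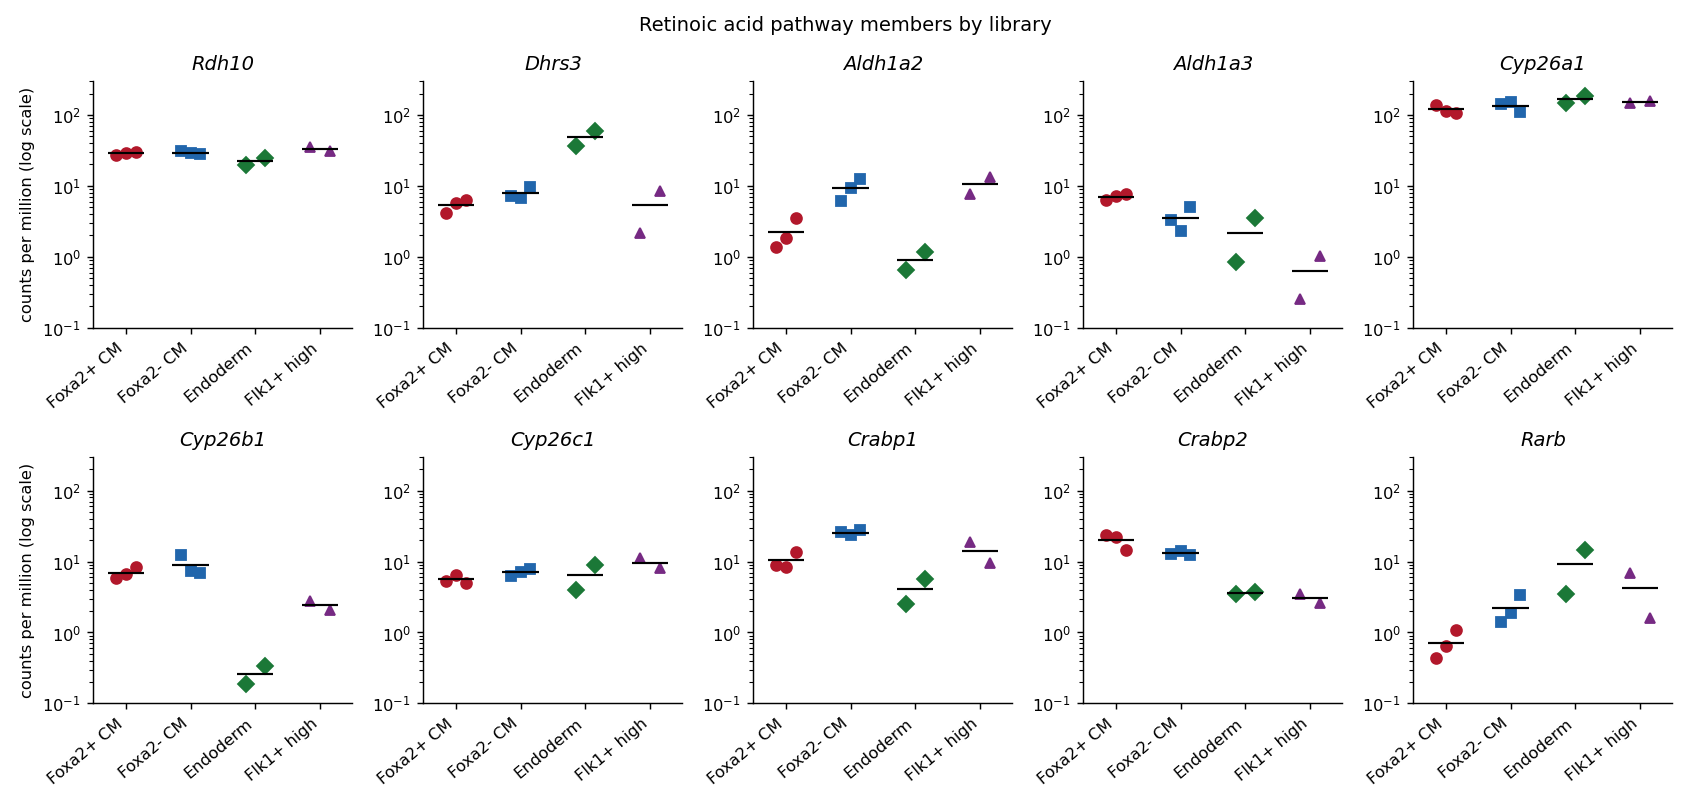
Level of each of the 10 genes in CPM (vertical axis, log scale) in each library of Foxa2+ CM, Foxa2- CM, Endoderm and Flk1+ high (horizontal axis). Points are libraries and bars are group means. *Cyp26a1* lies between 106 and 186 CPM in every library, while *Aldh1a2*, *Cyp26b1* and *Rarb* spread most between groups.

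Set against each other per length, in RPKM, which is CPM divided by exonic length in kilobases, the genes held a wide range in every population. *Cyp26a1* was the most abundant of the 10 in all 4 populations, with a mean of 60.2 ± 8.10 RPKM in Foxa2+ CM (SD, n = 3), 67.5 ± 11.4 in Foxa2- CM (n = 3), 84.5 ± 13.3 in Endoderm (n = 2) and 76.6 ± 4.21 in Flk1+ high (n = 2). It made up 90.5% to 97.1% of the summed RPKM of the 3 *Cyp26* genes in every library, *Cyp26c1* 2.90% to 7.86%, and *Cyp26b1* 0.0450% to 2.96%. *Cyp26c1* and *Cyp26a1* are neighbours on chromosome 19, 4399 bases apart. *Rarb* was the least abundant of the 10 in both CM populations, at 0.136 ± 0.0615 RPKM in Foxa2+ CM and 0.422 ± 0.188 RPKM in Foxa2- CM (SD, n = 3 each). Of the 7 genes with a promoter window, the 2 whose windows held a matching pair of hexamers thus sat at opposite ends of the range in CM. Dehydrogenase RNA was low beside that of the degrading enzyme, at 1.00 ± 0.503 RPKM of *Aldh1a2* and 1.51 ± 0.148 RPKM of *Aldh1a3* in Foxa2+ CM. The duplicate removal used for these libraries leaves at most 2 counts per exonic base in single-end data. *Cyp26a1* had 0.806 to 1.17 counts per exonic base in every library and the other 9 genes at most 0.607, and the part of this limit in the *Cyp26a1* values was not tested.

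Between the CM populations, Foxa2+ CM held less *Aldh1a2* and less *Crabp1* than Foxa2- CM. *Aldh1a2* encodes Raldh2, the main source of retinoic acid in the early embryo, and was at 1.39, 1.85 and 3.55 CPM (19, 32 and 63 counts) in Foxa2+ CM and at 6.19, 9.21 and 12.4 CPM (100, 116 and 220 counts) in Foxa2- CM. Every Foxa2- CM library lay above every Foxa2+ CM library, and within each population replicate 3 was the highest. The difference was 4.04-fold, a log2 fold change of -2.02 ± 0.39 (SE) with an adjusted p of 0.0227 by edgeR's quasi-likelihood test. *Crabp1*, which carries retinoic acid in the cytoplasm, was at 9.06, 8.39 and 13.8 CPM in Foxa2+ CM, while Foxa2- CM held 25.9, 23.5 and 27.5 CPM. Here too the populations did not overlap, and the highest Foxa2+ CM library was replicate 3. The log2 fold change was -1.30 ± 0.19 (SE), or 2.45-fold, with an adjusted p of 0.0100 by edgeR.

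These were the only members called at an adjusted p under 0.05 in that comparison, 2 of 10 and both lower in Foxa2+ CM, where 6.48% of the 15284 genes tested were called, 3.81% higher and 2.66% lower. By edgeR none of the 10 was called higher, 2 were higher at an unadjusted p under 0.05, and DESeq2 called 2 higher. The median log2 fold change of the 10 was -0.33, against -0.00 over all genes tested. With Foxa2+ CM 3 left out, *Aldh1a2* was at -2.50 (adjusted p = 0.00891 by edgeR) and *Crabp1* at -1.55 (adjusted p = 0.00208), and *Crabp2* was called as well (0.82, adjusted p = 0.0121). The summed CPM of 9 CM markers (1065 to 1270 in Foxa2+ CM, 1330 to 1477 in Foxa2- CM), of the 4 pluripotency markers (40.2 to 48.0, 66.9 to 105) and of the 5 neural markers (34.3 to 40.8, 19.8 to 27.9) also differed between the populations. Single markers moved in both directions by edgeR, 1 higher and 3 lower of the 9 CM markers and 1 higher and 1 lower of the 2 neural markers tested, with 0 higher and 1 lower of the 4 pluripotency markers. Of the 8 definitive endoderm markers, edgeR called *Foxa2* (3.18, adjusted p = 0.0353) and *Sox17* (2.09, 0.0118) higher in Foxa2+ CM. Of the 9 haemato-endothelial markers *Lmo2* was higher (0.79, 0.00885), and of 3 paraxial mesoderm markers tested *Tbx6* was lower (-1.14, 0.0354). None of the CM, neural, pluripotency, definitive endoderm and haemato-endothelial markers was at 0 in a CM library. The part of all these markers in the differences above was not tested. The *Aldh1a2* call was lost by edgeR without Foxa2+ CM 1 (adjusted p = 0.0794), without Foxa2+ CM 2 (0.118) or without Foxa2- CM 2 (0.0961). The *Crabp1* call was lost without Foxa2+ CM 2 (0.0501), without Foxa2- CM 2 (0.0504) and when all 10 libraries shared 1 model (0.0902).

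**Figure D2:**
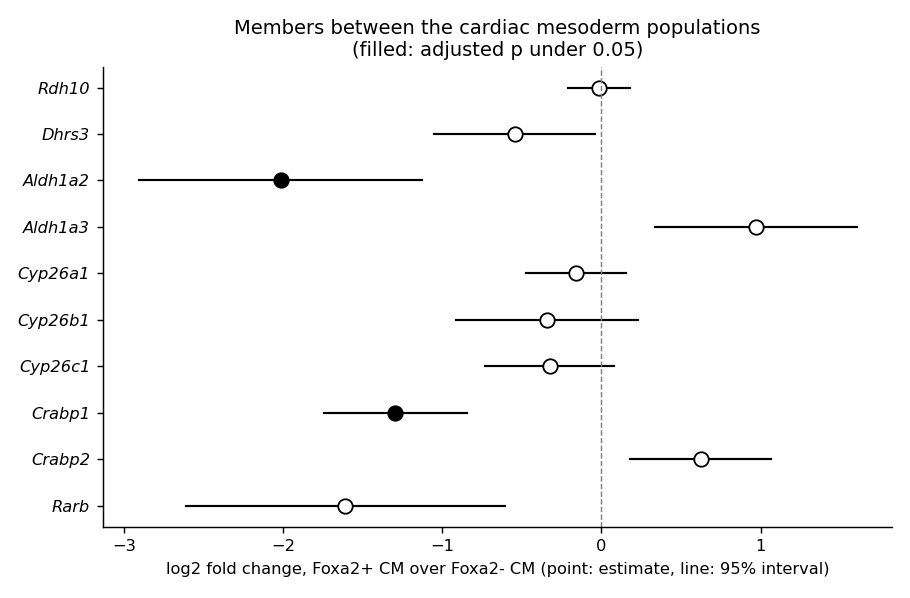
Log2 fold change of each gene in Foxa2+ CM over Foxa2- CM (horizontal axis) with its 95% interval, by edgeR on the 6 CM libraries; filled points passed an adjusted p of 0.05. *Aldh1a2* (-2.02) and *Crabp1* (-1.30) are filled and lie left of 0, and *Rdh10* (-0.02) sits at 0 with the shortest interval.

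Another 4 genes did not overlap between the CM populations but did not pass the test, which used no pairing of replicates. That makes 6 of 10 without overlap, where 24% of the 15284 genes tested had none. *Aldh1a3*, the dehydrogenase known from the eye and nasal region, was at 6.21, 7.12 and 7.56 CPM in Foxa2+ CM, against 3.28, 2.30 and 4.97 CPM in Foxa2- CM (a difference on the log2 scale of 0.97 ± 0.27 SE, adjusted p = 0.0848 by edgeR). *Crabp2*, which is known to hand retinoic acid to its nuclear receptors, was at 23.6, 22.3 and 14.4 CPM and at 12.8, 13.9 and 12.5 CPM (0.62 ± 0.19, adjusted p = 0.113). *Rarb* was at 0.439, 0.637 and 1.07 CPM and at 1.42, 1.91 and 3.33 CPM (-1.61 ± 0.43, adjusted p = 0.0738). *Aldh1a3* and *Crabp2* thus had their higher values in Foxa2+ CM, the opposite of *Aldh1a2* and *Crabp1*, and *Rarb* its higher values in Foxa2- CM. *Dhrs3*, which returns retinal to retinol, was at 4.09 to 6.26 CPM in Foxa2+ CM against 6.83 to 9.48 CPM in Foxa2- CM (-0.54 ± 0.22, adjusted p = 0.220 by edgeR). *Aldh1a3* and *Crabp2* passed by DESeq2 (adjusted p = 0.0293 and 0.0371), and *Rarb* passed by edgeR without the filter on low counts (0.0360). *Aldh1a3* also passed by edgeR without Foxa2- CM 3 (1.32, adjusted p = 0.00570). Without replicate 3 of both populations *Aldh1a3* (1.25), *Crabp2* (0.80) and *Rarb* (-1.56) passed, with adjusted p of 3.85e-05, 9.98e-06 and 0.00192 by edgeR.

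For the other 4 genes the intervals show how large a difference these libraries could hide. The 95% interval of the log2 fold change was -0.21 to 0.18 for *Rdh10*, -0.47 to 0.15 for *Cyp26a1*, -0.73 to 0.08 for *Cyp26c1* and -0.91 to 0.23 for *Cyp26b1*, by edgeR. The interval of *Cyp26a1* does not allow for the limit that duplicate removal sets on its counts. *Rdh10*, which starts the pathway, was the most even of the 10, at 27.6, 29.2 and 29.6 CPM in Foxa2+ CM, with 31.2, 28.7 and 27.8 CPM in Foxa2- CM.

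Within each library the balance of the related enzymes and carriers differed between the CM populations, a pairing that was chosen after the values were seen and is given with no test. Per length, *Aldh1a2* was 0.456, 0.531 and 0.959 times *Aldh1a3* in Foxa2+ CM 1, 2 and 3, and 3.85, 8.16 and 5.10 times *Aldh1a3* in Foxa2- CM. *Aldh1a3* was thus the more abundant dehydrogenase per length in Foxa2+ CM 1 and 2, both were about level in Foxa2+ CM 3, and *Aldh1a2* was the more abundant in all 3 Foxa2- CM libraries. *Crabp1* was 0.633, 0.621 and 1.58 times *Crabp2* in Foxa2+ CM and 3.33, 2.79 and 3.63 times *Crabp2* in Foxa2- CM. For both pairs Foxa2+ CM 3 was the library of its group nearest to Foxa2- CM, as it was for *Foxa2*. In Flk1+ high, *Aldh1a2* was 62.7 and 26.7 times *Aldh1a3*, the latter with 4 and 13 counts, and *Crabp1* was 9.14 and 5.99 times *Crabp2*. The Endoderm libraries stood on both sides of equality for the dehydrogenases, at 1.59 and 0.680, with 7 to 42 counts for each gene.

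**Figure D3:**
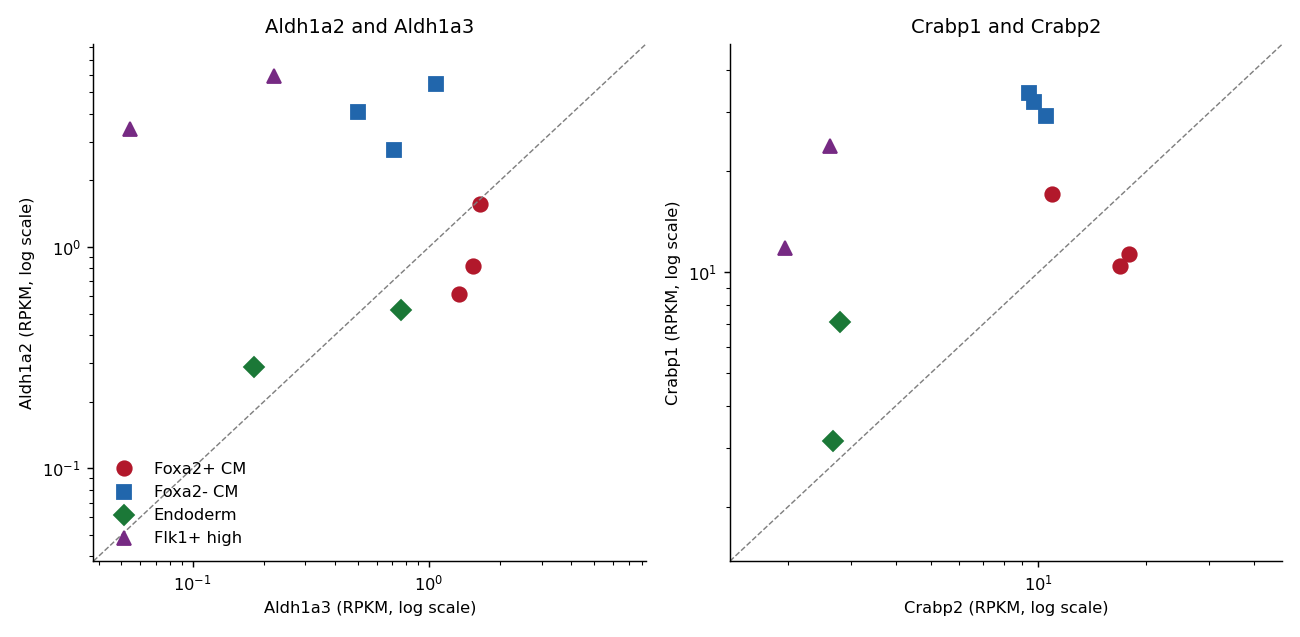
*Aldh1a2* against *Aldh1a3* (left) and *Crabp1* against *Crabp2* (right) in each library, in RPKM on log scales; the dashed line marks equal levels. All 3 Foxa2- CM libraries and both Flk1+ high libraries lie above the line in both plots, and Foxa2+ CM 1 and 2 lie below it in both.

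Comparisons with Endoderm and Flk1+ high used 1 model of all 10 libraries and 16180 genes. In Endoderm against Foxa2+ CM, 7 of the 10 genes were called, 3 higher and 4 lower, where 35% of all genes tested were called (18.3% higher and 16.7% lower). In Endoderm against Foxa2- CM, 6 were called, 1 higher and 5 lower, where 30.1% of all genes were called (16.1% higher and 14% lower). In Endoderm against Flk1+ high, 5 were called, 1 higher and 4 lower, where 32.6% of all genes were called (16.4% higher and 16.2% lower). In Flk1+ high against Foxa2+ CM, 5 were called, 2 higher and 3 lower, where 22.8% of all genes were called (11.6% higher and 11.2% lower). In Flk1+ high against Foxa2- CM, 3 were called, all lower, where 21.6% of all genes were called (11.3% higher and 10.3% lower). None was called higher there by edgeR or by DESeq2, and none was higher at an unadjusted p under 0.05. These comparisons share libraries, so their counts are not independent of each other.

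**Figure D4:**
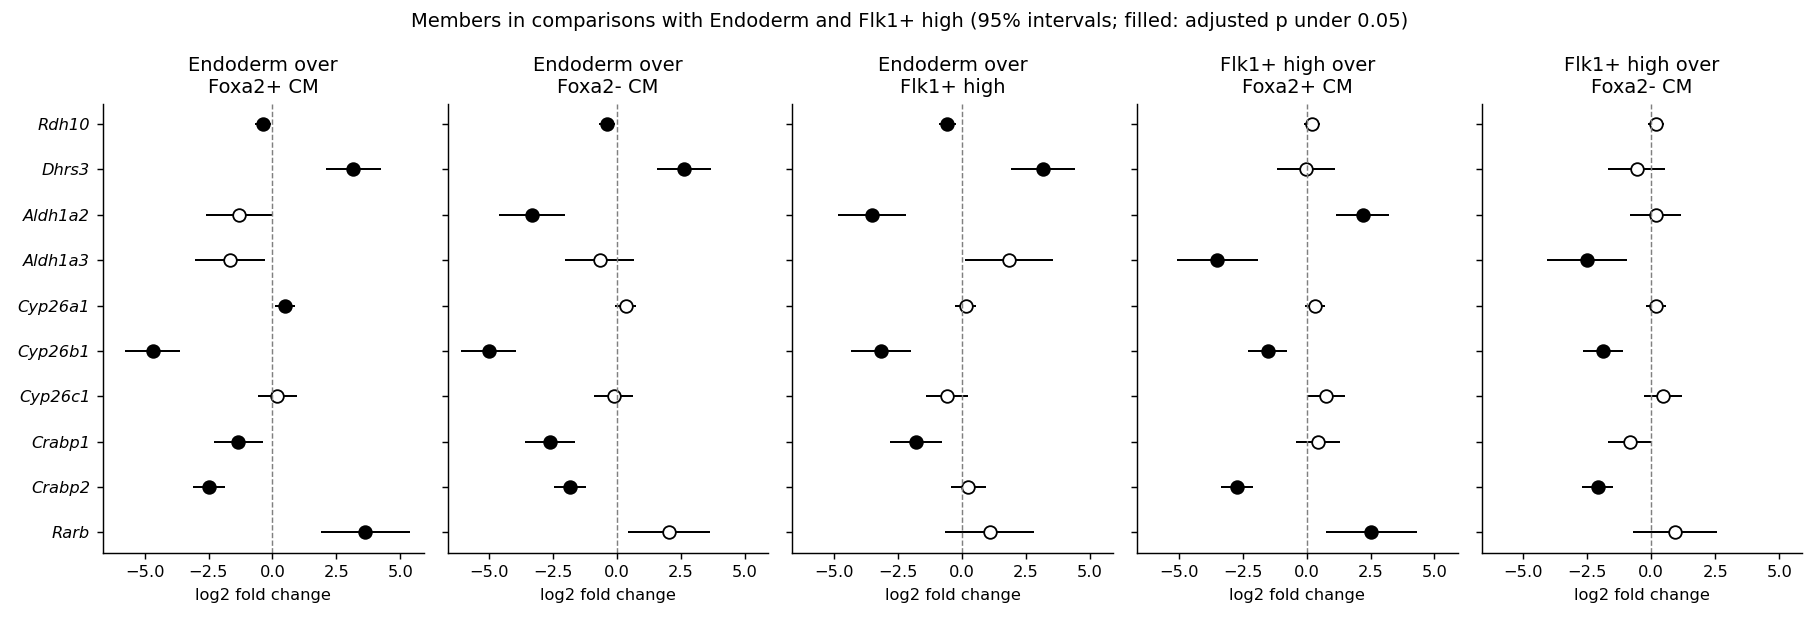
Log2 fold change of each gene (horizontal axis) with its 95% interval by edgeR in 5 comparisons; filled points passed an adjusted p of 0.05. *Dhrs3* lies right of 0 and *Cyp26b1* left of 0 in all 3 comparisons with Endoderm, and *Crabp2* left of 0 in both comparisons of Flk1+ high with CM.

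At the retinol and retinal step, Endoderm held far more *Dhrs3* and slightly less *Rdh10* than the mesoderm populations. *Dhrs3* was at 37.0 and 59.1 CPM in Endoderm, at 4.09 to 9.48 CPM over the 6 CM libraries and at 2.13 and 8.58 CPM in Flk1+ high. Both Endoderm libraries lay above all 8 others. The log2 fold change was 3.16 ± 0.46 (SE) over Foxa2+ CM, 2.61 ± 0.45 over Foxa2- CM and 3.18 ± 0.54 over Flk1+ high, with adjusted p of 0.000725, 0.00219 and 0.00176 by edgeR. *Rdh10* was at 19.9 and 24.4 CPM in Endoderm and at 27.6 to 34.8 CPM in every other library. It was lower by edgeR than in Foxa2+ CM (-0.37 ± 0.12, adjusted p = 0.0425), Foxa2- CM (-0.40 ± 0.12, 0.0387) and Flk1+ high (-0.57 ± 0.14, 0.0103). These small differences did not hold when libraries were left out: adjusted p rose to 0.205, 0.204 and 0.0608 without Endoderm 1, to 0.107 and 0.106 against Foxa2+ CM without its replicates 2 and 3, and to 0.0902, 0.0523 and 0.0505 against Foxa2- CM without its replicates 1, 2 and 3. With only the compared groups in the fit it rose to 0.0645, 0.0784 and 0.121, and without the filter on low counts to 0.0620 and 0.0698 against Foxa2+ CM and Foxa2- CM.

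The dehydrogenases had different orders across the populations. *Aldh1a2* was at 7.72 and 13.4 CPM in Flk1+ high and at 0.652 and 1.17 CPM (7 and 14 counts) in Endoderm. In the order Flk1+ high, Foxa2- CM, Foxa2+ CM, Endoderm, the neighbours Flk1+ high and Foxa2- CM did not differ by edgeR beyond their spread (0.18 ± 0.42, adjusted p = 0.812), nor did Foxa2+ CM and Endoderm (adjusted p = 0.0988). Endoderm was lower by edgeR than Foxa2- CM (-3.32 ± 0.55, adjusted p = 0.00182) and Flk1+ high (-3.50 ± 0.58, 0.00155), and Flk1+ high was higher than Foxa2+ CM (2.20 ± 0.44, 0.00725). *Aldh1a3* was at 0.839 and 3.51 CPM in Endoderm and at 0.251 and 1.02 CPM in Flk1+ high. Flk1+ high was lower by edgeR than Foxa2+ CM (-3.49 ± 0.68, adjusted p = 0.00640) and Foxa2- CM (-2.52 ± 0.68, 0.0279), the second call being lost without Foxa2- CM 1 (0.0621), Foxa2- CM 3 (0.0615), Flk1+ high 1 (0.122) or replicate 3 of both CM populations (0.0853), and with only the compared groups in the fit (0.0526). No neighbours in its order, which was Foxa2+ CM, Foxa2- CM, Endoderm, Flk1+ high, passed the test.

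Of the degrading enzymes, *Cyp26b1* separated the populations and *Cyp26a1* and *Cyp26c1* hardly did. *Cyp26a1* had 0.806 to 1.17 counts per exonic base, where duplicate removal leaves at most 2. The part of this limit in its evenness was not tested. *Cyp26b1* had 2 and 4 counts in Endoderm (0.186 and 0.335 CPM), 44 and 26 counts in Flk1+ high (2.76 and 2.05 CPM) and 80 to 197 counts in CM (5.85 to 12.2 CPM). Endoderm lay below all other libraries, and Flk1+ high below all CM libraries. Pooled counts per normalized depth were 26.6 times higher in Foxa2+ CM than in Endoderm (95% interval 12.1 to 73.1, exact, counting error only) and 33.7 times higher in Foxa2- CM (15.3 to 92.3). By edgeR, Endoderm was lower than Foxa2+ CM, Foxa2- CM and Flk1+ high with adjusted p of 8.53e-05, 6.37e-05 and 0.00134. Flk1+ high was lower than Foxa2+ CM (-1.52 ± 0.33, adjusted p = 0.00991) and Foxa2- CM (-1.87 ± 0.33, 0.00407).

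*Cyp26a1* was called in 1 comparison by edgeR, higher in Endoderm (149 and 186 CPM) than in Foxa2+ CM (137, 114 and 106 CPM), by 0.49 ± 0.16 with an adjusted p of 0.0372. Its counts were 1598 and 2225 in Endoderm and 1880, 1978 and 1888 in Foxa2+ CM. The libraries held 10926284 and 12317143 counts on genes in Endoderm and 13567078, 17118191 and 17470126 in Foxa2+ CM. The part of depth and of the limit from duplicate removal in this call was not tested. The call was lost without Foxa2+ CM 2 (0.102), Foxa2+ CM 3 (0.109), Endoderm 2 (0.249) or replicate 3 of both CM populations (0.0505). *Cyp26c1* was called in none of the 6 comparisons by edgeR or DESeq2, with 1 of them, Flk1+ high over Foxa2+ CM, at an unadjusted p under 0.05 (0.0348). Without Endoderm 2 it was lower in Endoderm than in Flk1+ high (-1.29, adjusted p = 0.0234 by edgeR). It ranged from 3.91 to 11.04 CPM over the 10 libraries, with its extremes in Endoderm 1 and Flk1+ high 1.

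The carrier *Crabp2* was lower outside CM, and *Crabp1* was lower in Endoderm. *Crabp2* was at 3.54 and 3.68 CPM in Endoderm and at 3.45 and 2.60 CPM in Flk1+ high, below all 6 CM libraries (12.5 to 23.6 CPM). By edgeR, Endoderm was lower than Foxa2+ CM (-2.47 ± 0.26, adjusted p = 0.000124) and Foxa2- CM (-1.85 ± 0.26, 0.000662). Flk1+ high was likewise lower than Foxa2+ CM (-2.72 ± 0.26, 0.000250) and Foxa2- CM (-2.10 ± 0.26, 0.000782). *Crabp1* was at 2.52 and 5.69 CPM in Endoderm and at 19.1 and 9.45 CPM in Flk1+ high, where the libraries bracketed 1 of the 3 Foxa2+ CM values. Endoderm was lower by edgeR than Foxa2- CM (-2.63 ± 0.42, adjusted p = 0.00145), Flk1+ high (-1.79 ± 0.43, 0.0110) and Foxa2+ CM (-1.33 ± 0.41, 0.0296). The call against Foxa2+ CM was lost without Foxa2+ CM 3 (0.0849), Endoderm 1 (0.189) or replicate 3 of both CM populations (0.0914). That against Flk1+ high was lost without Endoderm 1 (0.0726) or Flk1+ high 1 (0.0591) and with only these 4 libraries in the fit (0.0965).

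*Rarb*, the receptor gene that retinoic acid induces, had its highest mean in Endoderm, but the replicates there differed widely. It was at 3.54 and 14.6 CPM in Endoderm and at 6.84 and 1.58 CPM in Flk1+ high, and Foxa2+ CM, at most at 1.07 CPM, lay below all 4 of these libraries. Endoderm 1 lay below Flk1+ high 1, and without Endoderm 2 the difference between Endoderm and Flk1+ high was -0.26 (1.098 with all libraries, adjusted p = 0.308 by edgeR). By edgeR, Endoderm was higher than Foxa2+ CM (3.63 ± 0.76, adjusted p = 0.00525) and Flk1+ high was higher than Foxa2+ CM (2.53 ± 0.77, 0.0415). Without Endoderm 2 the first difference was 2.24 (adjusted p = 0.0762). Over Foxa2- CM, Endoderm was at 2.02 ± 0.69, with an adjusted p of 0.0532 by edgeR and 0.0337 by DESeq2. The difference with Flk1+ high was lost without Flk1+ high 1 (1.102, adjusted p = 0.412) and without Foxa2+ CM 1, 2 or 3 (0.133, 0.120 and 0.0612) and without replicate 3 of both CM populations (0.0630). No neighbours in the order Endoderm, Flk1+ high, Foxa2- CM, Foxa2+ CM passed the test. In GENCODE M21, 1793 (34.1%) of the 5265 exonic bases of *Rarb* are also exonic in *Top2b* on the other strand, and the library kit does not keep strand, so reads there cannot be assigned. The RPKM of *Rarb* given above divides by all 5265 bases, the shared ones included. *Top2b* was at 231 to 269 CPM in CM, 337 to 339 CPM in Endoderm and 332 to 333 CPM in Flk1+ high, and did not differ between the CM populations (0.03 ± 0.07, adjusted p = 0.922 by edgeR). The part of *Top2b* reads in the *Rarb* differences was not tested, nor that of the visceral endoderm markers, whose sum was also the higher in Endoderm 2. The other 9 genes share no exonic base with another counted gene.

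The rest of the pathway was followed with 51 further genes, which were also listed with earlier results of these data known. Of these, 50 were in the files and 35 were tested between the CM populations. By edgeR 2 were higher and 7 lower in Foxa2+ CM, where 6.48% of all genes were called, 3.81% higher and 2.66% lower. The retinoic acid response genes gave 2 higher and 5 lower of 10 tested. The homeobox genes *Hoxb1* and *Hoxb5*, the caudal-type gene *Cdx1* and the Hox cofactors *Meis1* and *Meis2* were lower. *Hoxb1* was at 1.32, 2.31 and 5.75 CPM in Foxa2+ CM against 34.1, 25.8 and 32.2 CPM in Foxa2- CM (-3.26 ± 0.43, adjusted p = 0.00605 by edgeR). It was called in all 12 alternatives tried, the only 1 of the 9 for which this was so, while *Cdx1* was called in 10, *Meis2* in 9, *Meis1* in 8, *Hoxb5* in 7, and *Nr2f1* and *Dhrs4* in 6. *Hoxb5* (-3.12, with 1 to 12 counts in Foxa2+ CM), *Cdx1* (-2.74), *Meis1* (-1.80) and *Meis2* (-1.57) had adjusted p of 0.0459, 0.0116, 0.0162 and 0.0118. The orphan receptor gene *Nr2f1*, also known from neural tissue, was at 2.19, 2.31 and 3.67 CPM in Foxa2+ CM against 0.495, 0.794 and 1.19 CPM in Foxa2- CM and was higher (1.71 ± 0.36, adjusted p = 0.0337 by edgeR).

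Upstream of these genes, the retinal reductase *Dhrs4* was lower in Foxa2+ CM (-0.39 ± 0.08, adjusted p = 0.0340 by edgeR). Among the 5 other receptors edgeR called 0, with 2 lower at an unadjusted p under 0.05, and DESeq2 called 1 lower. Their log2 fold changes were 0.08 for *Rara*, -0.13 for *Rarg*, -0.31 for *Rxra*, 0.03 for *Rxrb* and -0.52 for *Rxrg*, with adjusted p of 0.616, 0.288, 0.0551, 0.870 and 0.192. The median over the 35 genes was -0.03, and over the 10 response genes -1.60. Without Foxa2+ CM 3, 1 of the 35 was higher and 7 lower, and without Foxa2+ CM 2 or Foxa2- CM 2, 0 were higher and 1 was lower. The share of all genes called in these smaller fits is not given, so the changes do not describe these genes alone.

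**Figure D5:**
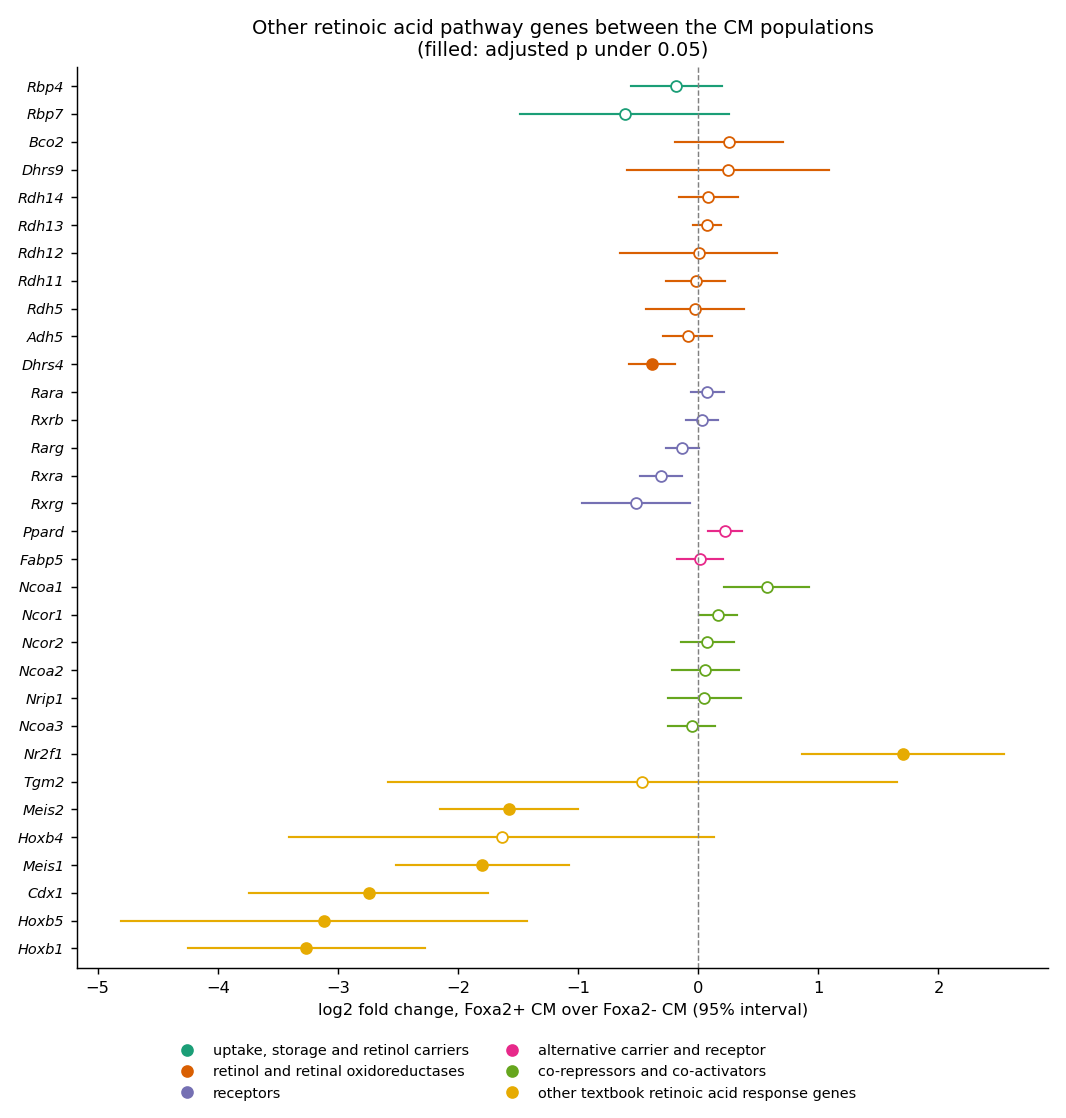
Log2 fold change in Foxa2+ CM over Foxa2- CM (horizontal axis) with its 95% interval by edgeR for 32 of the other pathway genes tested, coloured by role; filled points passed an adjusted p of 0.05. The response genes run from *Hoxb1* (-3.26) to *Nr2f1* (1.71), while the receptors lie between -0.52 and 0.08.

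In the other comparisons 37 of these genes were tested. The shares of all genes set beside them are those of the full fit, and none is given for smaller fits. Changes with libraries left out therefore do not describe these genes alone. Endoderm differed by edgeR from Foxa2+ CM in 15 (9 higher, 6 lower), from Foxa2- CM in 14 (6 and 8) and from Flk1+ high in 16 (9 and 7), where 35%, 30.1% and 32.6% of all genes were called. With 1 library left out at a time these became 5 to 7 higher and 5 to 6 lower against Foxa2+ CM (5 higher without Endoderm 2), and 3 to 6 higher and 4 to 9 lower against Foxa2- CM (3 higher without Foxa2- CM 2 or Endoderm 2, 4 lower without Endoderm 1). Against Flk1+ high they became 7 to 11 higher and 2 to 7 lower (2 lower without Endoderm 1), and 6 and 4 with only these libraries in the fit. *Stra6*, the membrane receptor for retinol uptake, was at 17.1 and 49.6 CPM in Endoderm against at most 0.790 CPM in any other library (log2 fold change 6.92, 6.15 and 6.87 over Foxa2+ CM, Foxa2- CM and Flk1+ high, adjusted p at most 0.000290 by edgeR), and the visceral endoderm markers, whose part was not tested, were likewise higher in Endoderm 2. Endoderm thus had the highest values of both *Stra6* and *Dhrs3*. *Dhrs9*, another retinol dehydrogenase, had 0 counts in both Endoderm libraries and 45 over Foxa2+ CM. Set against a floor of 3 counts over the whole Endoderm group, it was 6.99-fold higher in Foxa2+ CM. In Foxa2- CM and Flk1+ high it was 5.86-fold and 2.64-fold above this floor. The exact lower 95% limits of the ratios to Endoderm, for counting error in both groups, were 5.45, 4.52 and 1.78. *Hoxb5* also had 0 counts in Endoderm and was 22.5-fold higher in Foxa2- CM and 42.3-fold higher in Flk1+ high against the same floor (exact lower limits 18.02 and 33.97). *Hoxb4* had 2 counts over Endoderm, for a pooled ratio of 30.3 in Foxa2- CM (95% interval 8.205 to 253, exact, counting error only) and 65.4 in Flk1+ high (17.8 to 544).

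*Nr2f1* and the coactivator *Ncoa1* were lower in Endoderm than in Foxa2+ CM (*Nr2f1* at 1 and 4 counts, pooled ratio 12.6, exact 95% interval 5.26 to 39.4, adjusted p = 0.00148, and *Ncoa1* at -1.34, adjusted p = 0.00186 by edgeR). The related orphan receptor gene *Nr2f2* was higher in Endoderm than in Foxa2+ CM (2.81, adjusted p = 0.00512) and Foxa2- CM (3.13, 0.00429), as was *Tgm2*, which encodes a transglutaminase, against Foxa2+ CM (2.78, 0.0448). *Bco2*, a carotenoid-cleaving enzyme, was higher in Endoderm than in Foxa2- CM (1.07, 0.0278) and Flk1+ high (2.72, 0.000730), and the retinol dehydrogenase gene *Rdh12* than in Flk1+ high (1.64, 0.0121). Of the receptors, *Rxra* was higher in Endoderm than in both CM populations (0.84 and 0.53, adjusted p = 0.00149 and 0.0180 by edgeR), *Rxrg* than in Foxa2+ CM (2.05, 0.0212) and *Rarg* than in Flk1+ high (0.83, 0.000788), and *Rara* was lower than in both CM populations (-0.60 and -0.53, 0.000723 and 0.00174).

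Not all of these Endoderm calls held under the alternatives. *Tgm2* was lost by DESeq2 and without any 1 of the 5 libraries compared (1.80 to 3.73, adjusted p up to 0.297), and *Rxrg* likewise without any 1 of them (up to 0.0782). *Bco2* against Foxa2- CM was lost without Endoderm 1 or any Foxa2- CM library (up to 0.198), and *Rxra* against Foxa2- CM without Foxa2- CM 2 or Endoderm 2 (as low as 0.27, adjusted p up to 0.199). *Nr2f2* was lost without Endoderm 2, at 1.47 and 1.80 over Foxa2+ CM and Foxa2- CM (adjusted p = 0.0989 and 0.0692 by edgeR). *Rdh12* was lost without Endoderm 1 or Flk1+ high 2 and with only these groups in the fit (up to 0.0591). Against Flk1+ high, edgeR called *Dhrs9* in 5 of 8 alternatives and *Hoxb4* and *Hoxb5* in 6 of 9 each, and against Foxa2- CM *Hoxb4* in 6 and *Hoxb5* in 9 of 11, with losses without either Endoderm library in each case. The calls of *Stra6* in all 3 comparisons, *Rara* against both CM populations, *Nr2f1*, *Ncoa1* and *Rxra* against Foxa2+ CM, and *Rarg* and *Bco2* against Flk1+ high held in every alternative.

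Flk1+ high differed by edgeR from Foxa2+ CM in 16 of the 37 (8 higher, 8 lower) and from Foxa2- CM in 15 (5 and 10), where 22.8% and 21.6% of all genes were called. Without Foxa2+ CM 1 the first became 1 higher and 7 lower, and without Flk1+ high 1 it became 5 and 5. Without Foxa2- CM 1 the second became 1 and 6, without Flk1+ high 2 it became 3 and 5, and with only these groups in the fit 4 and 4. Here too no share of all genes is given for the smaller fits, so these changes do not describe the listed genes alone. *Tgm2* was at 40.2 and 71.8 CPM in Flk1+ high, higher than in Foxa2+ CM (4.54, adjusted p = 0.00883) and Foxa2- CM (4.08, 0.0132). *Nr2f2* was higher than in both as well (2.30 and 2.62, 0.0221 and 0.0160), and *Hoxb4* and *Hoxb5* were higher than in Foxa2+ CM (2.90 and 4.19, 0.0455 and 0.0182). *Rdh12* (-1.79 in both, 0.00845 and 0.00871) and *Bco2* (-1.91 and -1.66, 0.00582 and 0.0118) were lower than in both CM populations. *Ncoa1* (-0.96, 0.0143) was lower than in Foxa2+ CM, and *Cdx1* (-3.24, 0.00615) and the retinol carrier *Rbp4* (-1.003, 0.0132) lower than in Foxa2- CM. *Nrip1* and *Ncoa3*, which encode receptor cofactors, were higher than in Foxa2- CM (0.61 and 0.34, 0.0165 and 0.0260 by edgeR). *Rarg* was lower than in both CM populations (-0.63 and -0.76, adjusted p = 0.00396 and 0.00164 by edgeR), as was *Rara* (-0.36 and -0.28, 0.0162 and 0.0434), and *Rxra* was higher than in Foxa2+ CM (0.50, 0.0303). *Rxrb* lay between -0.06 and 0.03 in the 6 comparisons.

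Of these Flk1+ high calls, those of *Rdh12* and *Rarg* in both comparisons, *Tgm2* and *Bco2* against Foxa2+ CM and *Cdx1* held in every alternative. *Rara* against Foxa2- CM held in 2 of 11 and was lost without any 1 of the 5 libraries (adjusted p up to 0.140 by edgeR), and against Foxa2+ CM it was lost without Flk1+ high 1 (0.0604). *Rxra* was lost without Foxa2+ CM 1, Foxa2+ CM 2 or Flk1+ high 1 (up to 0.158). *Hoxb4* and *Hoxb5* were lost without Foxa2+ CM 1, Foxa2+ CM 2 or Flk1+ high 2, with ranges of 1.24 to 4.22 and 2.27 to 5.46 and adjusted p up to 0.450 and 0.169. *Nr2f2* was lost against Foxa2+ CM without Foxa2+ CM 1, Foxa2+ CM 3 or either Flk1+ high library (up to 0.0767), and against Foxa2- CM without Foxa2- CM 1 or Flk1+ high 1 (0.0646). *Tgm2* against Foxa2- CM was lost without Foxa2- CM 2 or Flk1+ high 2 (up to 0.0526), *Bco2* there with only these groups in the fit (0.0560), *Ncoa1* without Foxa2+ CM 2 or Flk1+ high 1 (up to 0.0745) and *Rbp4* without Flk1+ high 2 or with only these groups (up to 0.0646). *Nrip1* and *Ncoa3* were both lost without Foxa2- CM 1, Foxa2- CM 2 or Flk1+ high 2, and *Ncoa3* also without Flk1+ high 1 (up to 0.0988 and 0.138).

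Across the 10 libraries, the genes most like each member in pattern were taken among 14326 genes as a description, since the points share 4 populations. *Aldh1a2* was most like *Acvrl1*, an endothelial receptor gene of the BMP family (Pearson's r = 0.990 on log2 CPM), and next *Hoxb5* (0.973) and *Hoxd8* (0.969). *Cyp26b1* was most like the matrix genes *Col27a1* (0.991) and *Fbln2* (0.987). *Crabp1* was most like *Tmem200b* (0.989) and *Crabp2* most like *Abcd4* (0.982). *Rarb* was most like *Pogk* (0.964), followed by *Pctp* (0.961) and its partner receptor *Rxra* (0.945). The nearest genes of the others were *R3hdml* for *Aldh1a3* (0.980), *Wdr78* for *Dhrs3* (0.984), *Arhgap10* for *Rdh10* (0.971), *Ttc28* for *Cyp26c1* (0.934) and *Aatf* for *Cyp26a1* (0.933). Among the 10 themselves, the highest r were those of *Aldh1a2* and *Crabp1* (0.82), *Cyp26b1* and *Crabp1* (0.82) and *Aldh1a3* and *Crabp2* (0.80), and the lowest was that of *Rdh10* and *Dhrs3* (-0.82).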

How the data were processed

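Sorted-cell RNA from 10 libraries was sequenced with 50 nt single-end reads. The authors aligned reads to mm10 with STAR 2.5.0a, removed duplicates with Picard and deposited whole-number counts per gene made with HTSeq 0.6.0, not normalized (versions from the submitters' processing notes). Gene symbols, positions and exonic lengths came from GENCODE M21, which gave a symbol to 37607 of 38924 genes. The members and lists were chosen with earlier results of these data known.

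The deposited counts were tested with edgeR 4.0.16 (R 4.3.3, TMM normalization, filterByExpr defaults, quasi-likelihood test, Benjamini-Hochberg over all genes tested, called at an adjusted p under 0.05). Foxa2+ CM and Foxa2- CM were compared on their 6 libraries, and all other comparisons in 1 model of 10. Standard errors (SE) were derived from the F statistic. All 10 members passed the filter on low counts in every comparison. The test was checked on simulated data with a fixed dispersion, no effect shared by replicates and changes only in genes with higher counts. That check therefore does not cover genes with few counts or the spread of these replicates. Replicates differed by more than sampling noise (chi-square per degree of freedom 2.95 to 15.6). Named were all 10 members, all receptors, up to 12 called list genes between the CM populations and up to 4 per direction elsewhere, except genes that are counted but not reported here by name. Alternatives were DESeq2 1.42.0, other size factors, no filter, a fold limit of 1.5, a replicate block, other sample sets and left-out libraries. SciPy 1.17.1 gave the exact counting intervals, and matplotlib 3.10.9 drew the plots.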

Additional observations from a re-analysis of the deposited data

How the results depend on the processing

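Of 650 values of a member in a comparison under an alternative, 561 kept their direction and side of the threshold, 45 lost a call, 29 gained 1 and 15 changed sign. DESeq2's size factors in edgeR changed none, and DESeq2 changed 4, all gained. The number of members called between the CM populations was 2, and became 4 by DESeq2, 1 with all 10 libraries in 1 model, and 0 to 6 with libraries left out. It was 1 without Foxa2+ CM 1, 0 without Foxa2+ CM 2 or Foxa2- CM 2, and 6 without replicate 3 of both CM populations, where 2632 of all genes were called against 990 otherwise. Among these 6 were *Aldh1a3* (1.25, adjusted p = 3.85e-05 by edgeR), *Crabp2* (0.80, 9.98e-06), *Rarb* (-1.56, 0.00192) and *Cyp26b1* (-0.64, 0.0215). In Endoderm against Foxa2+ CM the 7 became 4 to 7 with libraries left out, 4 without Foxa2+ CM 3 or without replicate 3 of both CM populations. In Endoderm against Flk1+ high the 5 became 3 when only these 4 libraries were fitted. With groups of 2 and 3 libraries and 2 to 4 counts for a gene such as *Cyp26b1* in Endoderm, depth and replicate number limit these comparisons, and the causes of the changes were not tested. For most of these fits the share of all genes called is not given. A changed count of members is therefore not a result about the members alone. Leaving out a library also gave calls by edgeR to *Aldh1a3* in Endoderm against Foxa2+ CM (-3.07 without Endoderm 2, adjusted p = 0.0184) and against Flk1+ high (2.49 without Endoderm 1, 0.0301, and 3.09 without Flk1+ high 2, 0.0480), to *Rarb* in Endoderm against Foxa2- CM (2.67 without Endoderm 1, 0.0294), to *Dhrs3* in Flk1+ high against Foxa2+ CM and Foxa2- CM (-1.37 and -1.90 without Flk1+ high 2, 0.0492 and 0.0152) and to *Crabp1* in Flk1+ high against Foxa2- CM (-1.44 without Flk1+ high 1, 0.0371).

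With the replicate block, 6 members were called between the CM populations (2 higher, 4 lower), where 2556 of all genes were called. *Aldh1a3*, *Crabp2*, *Rarb* and *Dhrs3* were added, with adjusted p of 0.00566, 0.0111, 0.00113 and 0.0401 by edgeR. The block also took the calls of *Rdh10* (0.0755) and *Crabp1* (0.0715) in Endoderm against Foxa2+ CM and of *Rdh10* against Foxa2- CM (0.0695), gave calls to *Aldh1a2* against Foxa2+ CM (-0.94, 0.0438) and *Rarb* against Foxa2- CM (2.40, 0.0482), and changed no other member's call. Same-numbered CM libraries deviated together for replicates 1 and 3 (correlation 0.483 and 0.581). They hardly did for replicate 2 (0.0865), where Foxa2+ CM 2 correlated best with Foxa2- CM 1 (0.0970). These are deviations from means of 3 libraries. Foxa2+ CM 2 differed less from replicates 1 and 3 (chi-square per degree of freedom 4.26 and 3.93) than these from each other (7.83). Its low correlation therefore cannot decide whether the numbers are a pairing, and the main test used none.

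All 15 changes of sign came with libraries left out, and none was of a called difference. With 1 library left out at a time, *Rdh10* ranged from -0.045 to 0.0095 between the CM populations (positive without Foxa2+ CM 1, 0.0080, or Foxa2- CM 1). In Endoderm, *Cyp26c1* ranged from -0.54 (without Endoderm 2) to 0.62 against Foxa2+ CM and from -0.86 to 0.30 (without Endoderm 1) against Foxa2- CM, *Cyp26a1* from -0.027 (without Endoderm 2) to 0.28 against Flk1+ high, and *Rarb* from -0.26 (without Endoderm 2) to 2.53 against Flk1+ high. In Flk1+ high against Foxa2+ CM, *Dhrs3* ranged from -1.37 to 0.67 (positive without Foxa2+ CM 2, 0.024, Foxa2+ CM 3, 0.099, or Flk1+ high 1, and at 0.080 without replicate 3 of both CM populations), and *Crabp1* from -0.14 (without Flk1+ high 1) to 0.84. In Flk1+ high against Foxa2- CM, *Aldh1a2* ranged from -0.29 (without Flk1+ high 2; -0.063 without Foxa2- CM 1) to 0.53, *Dhrs3* from -1.90 to 0.13 (without Flk1+ high 1) and *Rarb* from -0.50 (without Flk1+ high 1) to 1.58.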
